A study of Mus musculus with 8 samples.

Results

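The m6A immunoprecipitate (IP) of bisphenol A (BPA)-exposed TM3 cells was compared with its input over 1673 of the 3331 peaks in the deposited peak table. A peak was kept where the pooled BPA input held more than 10 reads, which left 1274 gene entries of 2295. The kept peaks had at least 11 input reads, or 13.44 RPM on the scale of the deposited table. TM3 is an immortal mouse line labelled as Leydig cells, which make testosterone between the tubules of the testis, and BPA is a building block of plastics with estrogen-like activity. The labels used here give no dose, exposure time or passage, and the series holds 8 libraries in 4 groups: IP (MeRIP) and RNA-seq, the latter also serving as input, of BPA-exposed and of normal cells. Each group has 2 libraries, but the peak table holds 1 value per group. The spread between libraries is therefore not in the values, no test of IP against input was possible, and every interval on a peak covers counting error only.

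N6-methyladenosine (m6A) is a common internal modification of messenger RNA. It is written by a complex around METTL3 and METTL14, with WTAP as a scaffold. It is removed by FTO and ALKBH5, and it is bound by YTH-domain proteins that affect splicing, export, translation and decay. In MeRIP-seq, fragmented RNA is captured with an antibody to the mark, and the ratio of IP to input at a site is read as its enrichment.

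Enrichment was expressed as log2((IP RPM + 1)/(input RPM + 1)), so that 0 means the same RPM in both and 1 means a 2-fold higher value in the IP. The totals behind the RPM scale, recovered from the step of the values, were 3908372 IP reads and 818212 input reads in BPA-exposed cells. The listed peaks summed to between 826089 and 894159 RPM in the 4 columns, so most of each total lay in these peaks, and the BPA RNA-seq libraries held 8813870 and 6305121 counted reads. A ratio therefore compares a peak's share of a total made up mainly of the listed peaks. It is no share of a whole library and no absolute amount of methylation, and whether the peak set as a whole was richer in the IP cannot be read from it. 1 read was thus worth 0.256 RPM in the IP and 1.22 RPM in the input. The table also holds only peaks that the authors called different between BPA-exposed and normal cells. Their highest p-value is 0.00984, and 100% of the peaks in the authors' deposited table lie under a false discovery rate of 0.05. The kept peaks are therefore no sample of all m6A sites of these cells.

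Among the peaks with more than 10 input reads, most had a lower RPM in the IP than in the input, and some had almost no IP reads. This direction depends on the minimum: over all 3331 peaks the median log2 value was 1.75 with 1759 at 1 or more, and the 1658 peaks left out had a median of 5.48. The median log2 value was -0.62, with quartiles of -1.65 and 0.48 and extremes of -10.40 and 6.12. A value of at least 1 was reached by 298 of 1673 peaks (17.8%), and a value of at most -1 by 680 (40.6%). Most peaks lay in a broad central range. There were 695 peaks from -1 to under 1, 470 from -3 to under -1 and 165 from 1 to under 3. Only 43 peaks lay from -5 to under -3, below which a separate range of 167 peaks (9.98%) lay under -5. At the upper end 133 peaks (7.95%) had 3 or more. The 95% exact interval of the ratio lay wholly above 0 on the log2 scale for 514 peaks, wholly below 0 for 991, and included 0 for 168.

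**Figure D1:**
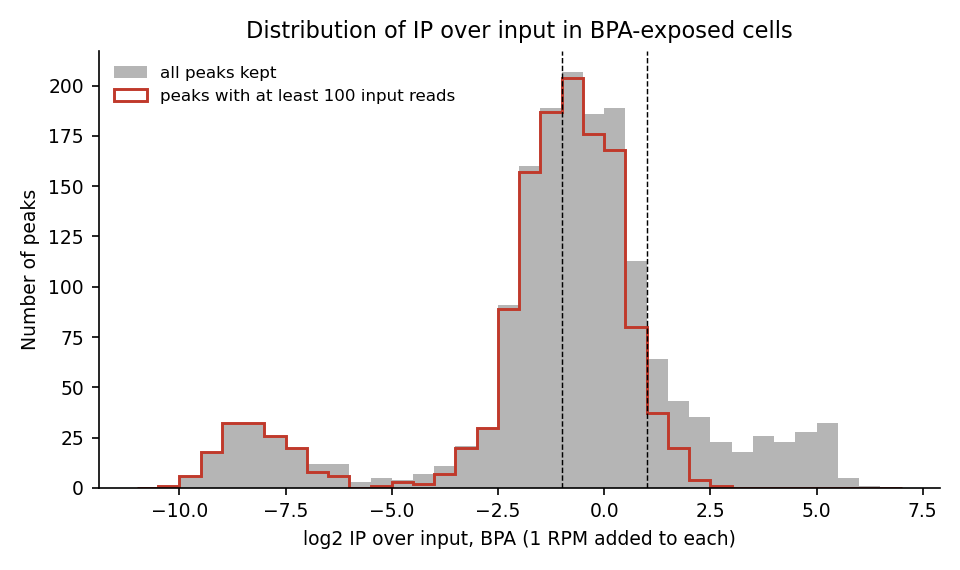
Number of kept peaks by log2 IP over input in BPA-exposed cells, in steps of 0.5, for all 1673 peaks (grey) and for the 1335 with at least 100 input reads (red line); dashed lines mark -1 and 1. A central range, a low range under -5 and a high shoulder from 3 upward are visible, and the high shoulder has 0 peaks with at least 100 input reads.

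The high and low ranges differed in which side of the ratio was extreme. In the 133 peaks at 3 or more, the median input was 14 reads and the median IP 1565 reads (400.4 RPM). None of them had 100 input reads. In the 167 peaks under -5 the median IP was 1 read and the median input 322 reads (393.5 RPM), and 150 of them had at least 100 input reads. With 1 RPM added, a peak near the minimum of input reads cannot fall under -5, so ample input there is partly built in. Of all kept peaks, 173 (10.3%) had 10 or fewer IP reads, 44 of them none at all, which for a single peak allows up to 3 IP reads. Their input ran from 11 to 1949 reads with a median of 288. For 43 of the 173, the same gene had another kept peak with over 100 IP reads.

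Peaks with more input reads had lower ratios. The median log2 value was 4.39 in the 138 peaks with 11 to 20 input reads, 2.29 in 69 peaks with 21 to 50, and 0.77 in 133 peaks with 51 to 100. It was 0.12 in the next 250 peaks with up to 200 reads, -0.85 in 589 with more reads up to 500, and -1.44 in 494 with over 500. Across the kept peaks, which are not independent replicates, the Spearman correlation of IP with input RPM was 0.268, and that of the log2 ratio with input RPM was -0.589. Input is the denominator of the ratio, so the second value is partly built in. At the minimum itself, the 32 peaks with 11 input reads had a median log2 value of 4.15 and the 47 peaks with 10 reads, just outside, had 4.47.

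**Figure D2:**
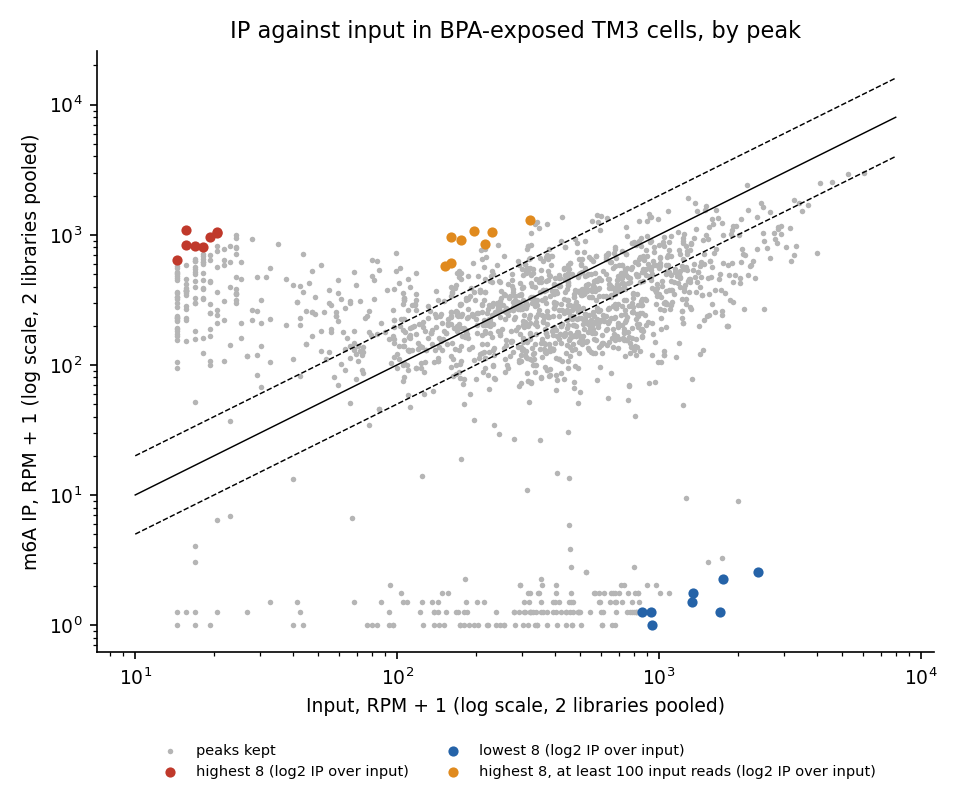
IP against input RPM (1 added, both axes log scale) for the 1673 kept peaks, each point the pooled value of 2 libraries. The solid line is equality and the dashed lines 2-fold; the 8 highest ratios (red) sit at 11 to 16 input reads, the 8 highest with at least 100 input reads (orange) at 124 to 261, and the 8 lowest (blue) at or near 0 IP reads.

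The highest ratios belonged to 4 protein-coding genes and 4 pseudogenes. The peak of Klf6, a zinc finger transcription factor gene induced early in growth responses, held 3134 IP reads (801.9 RPM) against 14 input reads (17.11 RPM). It had a log2 value of 5.47, with a 95% interval of the ratio without pseudocount of 4.80 to 6.42. It lay on the plus strand of chromosome 13 from 5918978 to 5919152. In normal cells the same peak had 71.45 RPM in the IP and 222.5 RPM in the input, a log2 value of -1.62.

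Rnf213, which encodes a very large ubiquitin ligase with ATPase domains, had 956.7 RPM in the IP and 18.33 RPM in the input, a log2 value of 5.63 (4.98 to 6.54). Its normal value was -3.51. The peak of Ebag9, a gene for a Golgi-associated protein, had 636.1 against 13.44 RPM, or 5.46 (4.72 to 6.57), and a normal value of -0.68. That of 2610008E11Rik had 822.9 against 15.89 RPM, or 5.61 (4.92 to 6.61), and -3.62 in normal cells. All 4 coding genes thus had high IP and almost no input reads at the peak.

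The RNA-seq count table did not show these transcripts as absent. Klf6 had 1292 and 479 reads in BPA replicates 1 and 2, Rnf213 2322 and 3672, Ebag9 1276 and 117, and 2610008E11Rik 1091 and 1376. Reads of these genes were thus counted in both libraries, although few input reads lay in the peaks.

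The pseudogenes Gm6793, Gm5263, Gm6565 and Gm6361 had log2 values of 6.12, 5.73, 5.68 and 5.65, with 12 to 16 input reads each. In the count table Gm6793 had 23 and 7 reads, Gm6565 had 1 and 1, and Gm6361 had 0 and 0. In these 3, between 4019 and 4254 IP reads at the peak stood beside few or no counts for the gene. Gm6793 had a second kept peak with 0 IP and 378 input reads (-8.85), and summed over both peaks it had 1.19. Reads from a near-identical parent gene can be placed on such copies, so the source of these reads is uncertain. Of the 142 kept peaks on genes annotated as pseudogenes, 41 (28.9%) had a value of at least 1, against 245 of 1439 (17.0%) on protein-coding genes.

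Where the input was deeper, the strongest enrichment was far smaller. Among the 1335 peaks with at least 100 input reads the highest value was 2.60, on Hspa9, the mitochondrial HSP70 chaperone gene. That peak had 966.4 RPM in the IP and 158.9 RPM in the input, a ratio of 6.08 (5.11 to 7.30). It lay in 2 blocks of together 50 bases on the minus strand of chromosome 18, between 35079671 and 35080594. Another 3 peaks of this gene were kept, and summed over its peaks Hspa9 had a log2 value of 1.18.

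Srsf3, which encodes a small SR splicing factor, had 915.98 against 174.8 RPM, a log2 value of 2.38 (2.15 to 2.64). The peak of Hspa4, a chaperone gene of the HSP110 type, had 1041 against 228.6 RPM, or 2.18 (1.98 to 2.41). Those of Col8a1, a short-chain collagen gene, and Abce1, a ribosome recycling factor gene, had 1.97 and 1.92. In normal cells each of these 5 peaks had a negative log2 value, from -7.49 for Abce1 to -1.35 for Hspa4.

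The other 3 of the set cannot be tied to a single gene. Srp54b, of the signal recognition particle, had 2.43 on this peak, but near-identical copies of the gene exist and its summed value over 3 peaks was -0.49. Gm5643, with 2.03, is an annotated pseudogene. Rnf146, a ubiquitin ligase gene, had 1.92 on a peak whose 4 RPM values were the same as those of a peak on the opposite strand assigned to Echdc1. Rnf146 had 0 and 0 reads in the BPA count libraries. Of the kept peaks, 44 shared all 4 RPM values with another, in 22 pairs, of which 13 lay on both strands.

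The lowest ratios were on well-covered input, which is built in, since with 1 RPM added a peak with little input cannot reach them. Dek, which encodes a chromatin-bound DNA-bending protein, had 1 IP read against 1396 input reads (0.26 and 1706 RPM), on chromosome 13 from 47251723 to 47251747. Its log2 value was -10.40, and the ratio without pseudocount was 0.000152 (3.79e-06 to 0.000837). In normal cells that peak had 882.98 RPM in the IP and 321.7 RPM in the input. Of the 3 kept Dek peaks, the other two had -8.39 and -0.15.

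Rlim, an X-linked ubiquitin ligase gene, had 0 IP reads against 765 input reads, for which the upper end of the interval of the ratio was 0.00101. Cacybp, whose product binds calcyclin and takes part in a ubiquitin ligase complex, had 6 against 1949 reads, a log2 value of -9.87 and a ratio of 0.000647 (0.000236 to 0.00141). Uso1, the gene of a tether for vesicles between endoplasmic reticulum and Golgi, had 2 against 1091 reads. Another 3 Uso1 peaks were kept, and summed over all 4 the gene had -1.25.

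Mat2b, the regulatory subunit of the enzyme that makes the methyl donor S-adenosylmethionine, had 5 against 1434 reads and a log2 value of -9.59. Wwc2, of the Hippo pathway, had 3 against 1098 reads (-9.57). The transcriptional repressor gene Nfx1 had 1 against 764 (-9.53), and Prep, a prolyl endopeptidase gene, 1 against 701 (-9.41). All 8 lowest peaks lay on protein-coding genes and had at least 100 input reads, which values this low require. Their normal log2 values ran from 0.79 for Wwc2 to 3.89 for Cacybp.

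RNA of the 8 genes was present in both BPA count libraries. Dek had 5762 and 3268 reads, Uso1 8423 and 4910, and Prep 1634 and 1620. Rlim had 179 and 1764 and Wwc2 2145 and 119, so these last genes varied widely between the libraries. Whether the missing IP reads are shared by both IP libraries cannot be seen in the pooled value. The columns of the count table name the condition and a number but no assay, and the RNA-seq replicates were assigned to them on that basis.

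Peaks of the same gene often differed. Of the 285 genes with several kept peaks, the median range between the highest and the lowest log2 value was 1.379 (quartiles 0.46 and 3.92). Values of at least 1 and of at most -1 stood side by side in 38 genes, while all peaks were at least 1 in 17 genes and at most -1 in 50. The genes with the widest ranges, chosen after their values were seen, included Cald1, which encodes the actin-binding protein caldesmon. Among its 7 kept peaks 1 had 4.60, with 3324 IP and 28 input reads, another had -8.81, with 2 IP and 555 input reads, and the other five lay between -0.50 and 0.38. Itgb1, the gene of the integrin beta 1 chain, had 2.89, -1.93 and -8.51 on its 3 kept peaks.

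Wider peaks had somewhat higher values. The median was -0.75 in the 451 peaks of 25 bases, the narrowest width, and 0.16 in the 97 peaks over 150 bases. A value of at least 1 was reached by 16.2% and 29.9% of them. Peaks in 1 block had a median of -0.69 (1344 peaks), those in 2 blocks -0.51 (291 peaks) and those in 3 or more 0.15 (38 peaks). Median input reads were 311, 274 and 197.5 in these block classes, so the input differed along with the number of blocks. On the mitochondrial genome, 9 peaks had a median of -0.95.

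Gene lists were described by 1 value per gene, from the RPM summed over its kept peaks. Over all 1274 gene entries the median was -0.64, with 212 (16.6%) at 1 or more and 514 (40.3%) at -1 or less. These shares are the background for each count that follows. Of the 248 listed genes with a kept peak, 45 had 1 or more and 85 had -1 or less, with a median of -0.52.

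The genes of the m6A machinery had the lowest median of the lists with at least 5 kept genes, -3.60 over 8 genes. Of these 8, 5 had -1 or less and 1 had 1 or more. Mettl3, which encodes the methyltransferase itself, had 1 IP read and 330 input reads (0.26 and 403.3 RPM), a log2 value of -8.33. The ratio was 0.000645, with a 95% interval of 1.60e-05 to 0.00356. Its peak lay in 2 blocks on the minus strand of chromosome 14 between 52534215 and 52534410, and normal cells had 306.4 RPM in the IP and 227.2 RPM in the input there. Wtap had 1 against 446 reads, or -8.76, on the minus strand of chromosome 17 from 13193411 to 13193435, with 433.2 and 323.4 RPM in normal cells. The nuclear reader gene Ythdc1 had 2 against 561 reads, or -8.83, and 419.1 and 220.7 RPM in normal cells. All 3 peaks thus had ample input reads and almost no IP reads in BPA-exposed cells, and higher RPM in the IP than in the input in normal cells.

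The counts of Mettl3 and Wtap differed greatly between the BPA count libraries. Mettl3 had 830 and 1 reads, and Wtap 3632 and 3, whereas Zc3h13 had 1352 and 883 and Ythdc1 3612 and 6074. The part of this library difference in the pooled ratio was not tested. Hnrnpc and Hnrnpa2b1, both genes of nuclear RNA-binding proteins linked to m6A, had -5.08 and -2.13, against 0.47 and 0.10 in normal cells. Zc3h13, of the writer complex, had 0.26 and Igf2bp2, a reader gene, 0.51. In normal cells their values were -1.12 and -7.14, with 0 RPM in the IP against 1.17 and 139.7 RPM in the input. Fmr1, which encodes the FMRP protein, had 3.52 with 2286 IP and 41 input reads, and 0.49 in normal cells. The list thus went both ways: Zc3h13, Igf2bp2 and Fmr1 were higher in BPA-exposed than in normal cells and the others lower. The list median minus that of all genes was -2.97. It was -7.34 with the RNA-seq counts of BPA replicate 1 as denominator and -1.28 with those of replicate 2. Here and below, these denominators are counts over the whole gene, scaled to library size. The IP values cover kept peaks only, so such a ratio sets a part against a whole and is no second measure of input at the peaks. Mettl14, Fto, Alkbh5 and the autophagy receptor gene Sqstm1 had no peak in the table used here.

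Map1lc3b, the autophagosome gene named in the series title, had a single peak that did not reach the minimum. It held 784 IP reads (200.6 RPM) against 4 input reads (4.89 RPM) in BPA-exposed cells, a log2 value of 5.10. The ratio without pseudocount was 41.02 (15.96 to 150.97). It lay on the plus strand of chromosome 8 from 122323383 to 122323482. Normal cells had 246.0 RPM in the IP and 196.6 RPM in the input, a log2 value of 0.32. The IP values of the conditions were thus close and the input values far apart. In the count table Map1lc3b had 2 reads in each BPA library. Of 37 autophagy genes listed, 4 had any peak here. Among these 4 only Nbr1, a cargo receptor gene, had kept peaks, where 1274 of all 2295 gene entries had. Its summed log2 value was 3.32 from 2179 IP and 45 input reads.

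Splicing factor genes had a median of 0.07 over 22 genes, with 8 at 1 or more and 5 at -1 or less. Rbm39, Sf3b3 and Hnrnpu had 5.24, 5.10 and 4.75, each with 11 to 17 input reads. On deeper input Hnrnpa1 had 1.70 with 7886 IP and 506 input reads, and Hnrnpm 1.64 with 2375 and 159. Hnrnpk, with the most input reads of the list, had -1.45, and Rbm25 had -1.91. The RNA helicase gene Ddx5 had 2 IP and 110 input reads and a value of -6.49. The list median minus that of all genes was 0.71, but -1.06 and -0.81 with the RNA-seq counts of BPA replicates 1 and 2 as denominator, so the side of the list depended on the denominator.

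Ribosomal protein genes had a median of -0.36 over 26 genes. There were 5 at 1 or more and 5 at -1 or less, the latter a smaller share than among all genes (40.3%). Rps28 and Rpl7 had -2.06 and -1.95, while Rps3 and Rps7 had -0.84 and -0.63. Rpl17 had 4.54 with 11 input reads. Many of these genes have processed copies in the genome, so their peak reads are uncertain. Relative to all genes the list median moved from 0.28 to 1.70 and 1.67 with the counts of BPA replicates 1 and 2 as denominator, and to -0.71 with no minimum of input reads.

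Translation factor genes had a median of -1.01 over 15 genes, of which 8 had -1 or less and 2 had 1 or more. Relative to all genes the list median was -0.37, but -0.034 with no minimum of input reads. It was -0.49 and -0.97 with the counts of BPA replicates 1 and 2 as denominator. Eif5b, which joins ribosomal subunits, had -1.63 over 4 peaks with 4581 IP and 2978 input reads. The elongation factor gene Eef2 had -1.74, and Eif3a, the largest subunit of the eIF3 complex, -1.10. Eif1, a start codon selection factor gene, had 0.56. Eif2s3x and Eif3d had 1 IP read each against 238 and 139 input reads.

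Chaperone genes spanned the range. The heat shock list had a median of -0.34 over 14 genes, with 4 at 1 or more and 3 at -1 or less. Cct5 and Cct8, of the chaperonin ring that folds actin and tubulin, had -0.44 and -1.56, and Dnaja1, an HSP40 gene, had 1 IP and 405 input reads. In the endoplasmic reticulum list, with a median of -0.64 over 8 genes, Hspa5 and Hsp90b1 had -0.22 and 0.26 on 3482 and 1132 input reads. Canx, the calnexin gene, and Sdf2l1 had -1.63 and -1.59. Relative to all genes the heat shock median went from 0.30 to -1.34 and -1.64 with the counts of BPA replicates 1 and 2 as denominator, and to -1.40 with no minimum. The endoplasmic reticulum median went to -1.42 and -1.31 with those denominators.

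Matrix, cytoskeleton and growth genes had medians near that of all genes on the input scale, but not on the others tried. Extracellular matrix genes had a median of -0.58 over 23 genes, with 2 at 1 or more and 8 at -1 or less. Fn1, the fibronectin gene, had -1.35 over 8 kept peaks, Col1a2 had -2.17, Lox, a collagen cross-linking enzyme gene, -0.52 and Sparc -3.26, while Thbs1 had 0 IP reads against 209 input reads. Actin cytoskeleton genes had a median of -0.62 over 19, with Actb at -1.30, Tpm3 at -1.56, and Vim at 5.14 on 11 input reads. Replication and mitosis genes had a median of -0.80 over 18, with Top2a at -1.13, Cdk4 at -0.89 and Mki67 at -0.68. Of 11 histone and HMG genes, 4 had 1 or more and 5 had -1 or less: Hmga2 had 5.33, Hmgb1 3.99 and Hmgn2 1.84, whereas H1f0, the linker histone gene, had -1.75 and H3f3b -8.46. With the counts of BPA replicates 1 and 2 as denominator the list medians minus that of all genes went from 0.06 to -1.87 and -1.40 for matrix genes, from 0.018 to -1.43 and -1.38 for actin genes, and from -0.17 to -0.71 and -0.89 for replication genes. With no minimum of input reads they were -1.17, -1.10 and -1.37. The histone and HMG median went from -0.11 to -0.91 and -0.81 with those denominators, and to 0.78 with no minimum.

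Regulatory genes were divided. Transcription factor, immediate early and growth response genes, taken as 1 list, had a median of 0.39 over 7, with 0 at -1 or less. Klf6 and Dusp6, a phosphatase gene that acts on ERK, had 5.47 and 4.76 on only 14 and 18 input reads. In the BPA count libraries Dusp6 had 23 and 7 reads. On 264 and 969 input reads, Ier3 and Ccn1 had 0.39 and -0.84. Chromatin modifier genes had a median of -0.78 over 11, with Kdm2a, a histone demethylase gene, at -3.02. Signalling genes had a median of -1.01 over 15, of which 8 had -1 or less. Smad5, a transducer of BMP signals, had 9 IP and 1419 input reads (-9.04), and normal cells had 728.2 RPM in the IP and 0 RPM in the input at that peak. Huwe1, a giant ubiquitin ligase gene, had -1.29. Of the long noncoding RNAs, Malat1 had 0.05 on 1226 input reads, Gas5 -0.79, Tug1 1.67 and Neat1 4.02 on 11 input reads. Relative to all genes the median of the transcription factor, immediate early and growth response list turned from 1.03 to -0.16 with no minimum. That of long noncoding RNAs turned from 1.60 to -1.28 with the counts of BPA replicate 2 as denominator. The signalling median went from -0.37 to -1.32 and -2.01 with the counts of replicates 1 and 2. The chromatin modifier median went from -0.14 to -0.997 and -0.96 with those counts, and to 1.23 with no minimum.

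Organelle and metabolic genes were mostly at or below 0, but so were genes in general, with a median of -0.64 and an upper quartile of 0.40. Values of 1 or more and of -1 or less were held by 1 and 4 lysosomal, 1 and 2 proteasome and 0 and 4 amino acid stress genes. The shares over all genes were 16.6% and 40.3%. Relative to all genes these 3 list medians were -0.55, 0.16 and -0.20. Lysosomal genes had a median of -1.19 over 8, with Cd63 at -1.89, Scarb2 at -1.87 and Psap, which encodes the saposin precursor, at 0 IP and 274 input reads. Proteasome genes had a median of -0.48 over 9, with Psma2 at -3.14 on 1722 input reads. Of glycolytic genes, Pgk1 had 2 IP and 587 input reads (-8.89) and Eno1 had -0.51. The mitochondrially encoded mt-Cytb had -0.85 on 4303 input reads, mt-Nd5 -1.70 and mt-Co1 -0.31. The amino acid stress genes had a median of -0.84 over 9, with Slc3a2 at -2.49 and Eprs at -0.13. The oxidative phosphorylation genes Cycs and Cox6b1 had -0.47 and -1.44, the antioxidant genes Prdx2 and Taldo1 -0.85 and 0.46. Among receptor genes Ahr, the aryl hydrocarbon receptor, had 1.84 on 41 input reads and Nr2f2 had 0.19. Of the cholesterol synthesis genes, Sqle had 5.28 on 13 input reads and Hmgcs1 had -1.37.

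**Figure D3:**
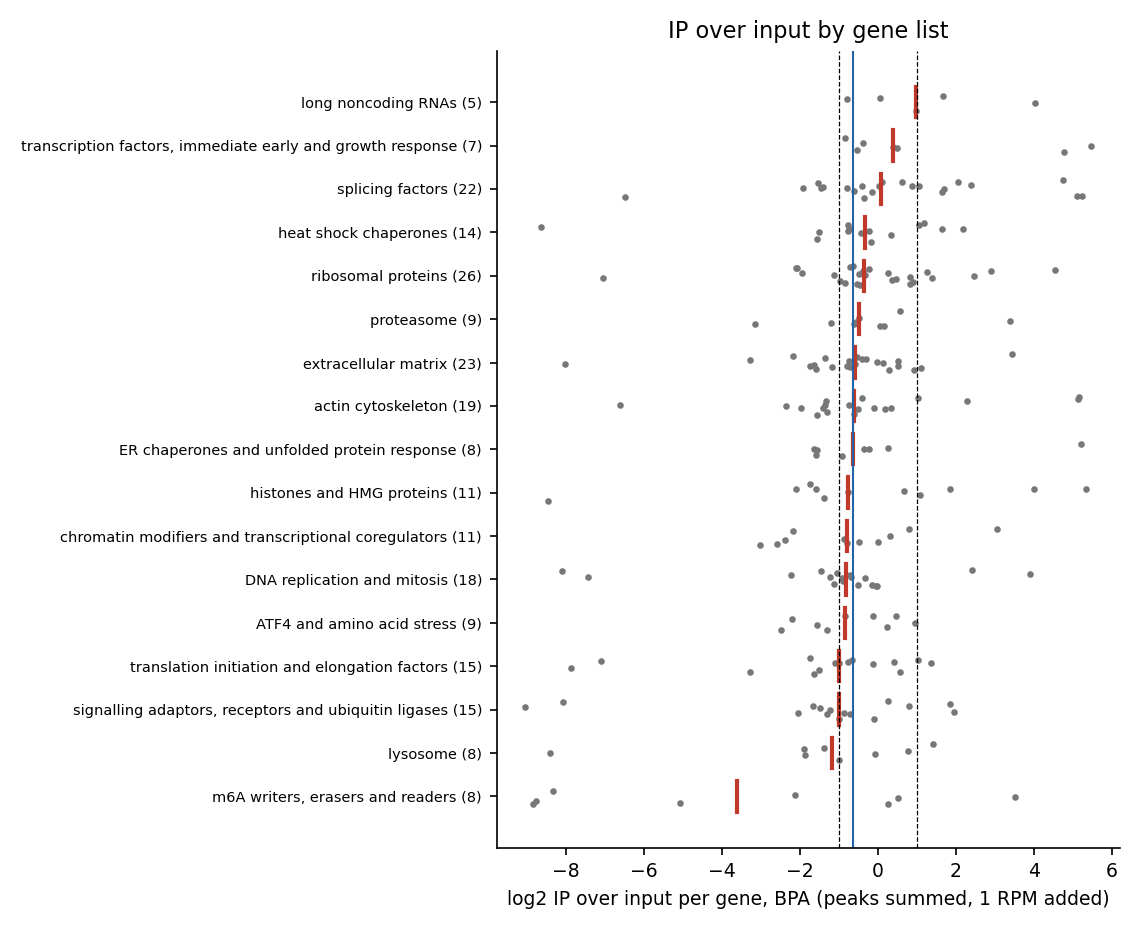
log2 IP over input per gene in BPA-exposed cells for lists with at least 5 kept genes (number of genes in brackets), each point a gene, with list medians in red, the median of all 1274 gene entries in blue and dashed lines at -1 and 1. The m6A list has the lowest median (-3.60) and long noncoding RNAs the highest (0.97); points are shifted vertically at random for display only.

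Defining Leydig cell genes could not be followed. Star, Cyp11a1, Cyp17a1, Hsd3b1, Lhcgr, Insl3 and Nr5a1 had neither a peak nor a row in the count table used here, and are not analysed here. Of the 8 Leydig markers Scarb1 alone had counts, 1677 and 331 reads in the BPA libraries, and 0 had a peak. Of the markers checked for Sertoli cells (6), germ cells (5), macrophages (4) and smooth muscle or endothelium (6), 0 had a peak, and 0 of the germ cell markers had a row. Their summed counts in BPA replicates 1 and 2 were 2287 and 721 for 4 Sertoli markers with a row, 174 and 436 for Cd68, and 501 and 1270 for Acta2 and Des together. The label of the cells as Leydig cells thus rests on the line's name here.

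Set beside normal cells, the ratios of the kept peaks tended to lie on the other side. In normal cells the same 1673 peaks had a median of -0.02, with 355 (21.2%) at 1 or more and 352 (21%) at -1 or less. Of the 680 peaks at -1 or less in BPA-exposed cells, 239 had 1 or more in normal cells, 440 lay between and 1 had -1 or less. Of the 298 at 1 or more in BPA-exposed cells, 139 had -1 or less in normal cells, 128 lay between and 31 had 1 or more. None of these 31 had at least 100 input reads in both conditions. The BPA value was at least 1 above the normal value in 496 peaks (29.6%) and at least 1 below it in 804 (48.1%). The table was selected by the authors for this very contrast, so these counts describe the selection and are no test of it. The peaks were also kept by BPA input alone, the denominator of the BPA ratio, which favours lower BPA values. Without that minimum, 1915 of all 3331 peaks were at least 1 above the normal value and 1039 at least 1 below it. The authors' deposited table gives a log2 fold change of -13.38 for the lowest Dek peak, 7.97 for Klf6, -10.28 for Mettl3 and 5.43 for Hspa9.

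**Figure D4:**
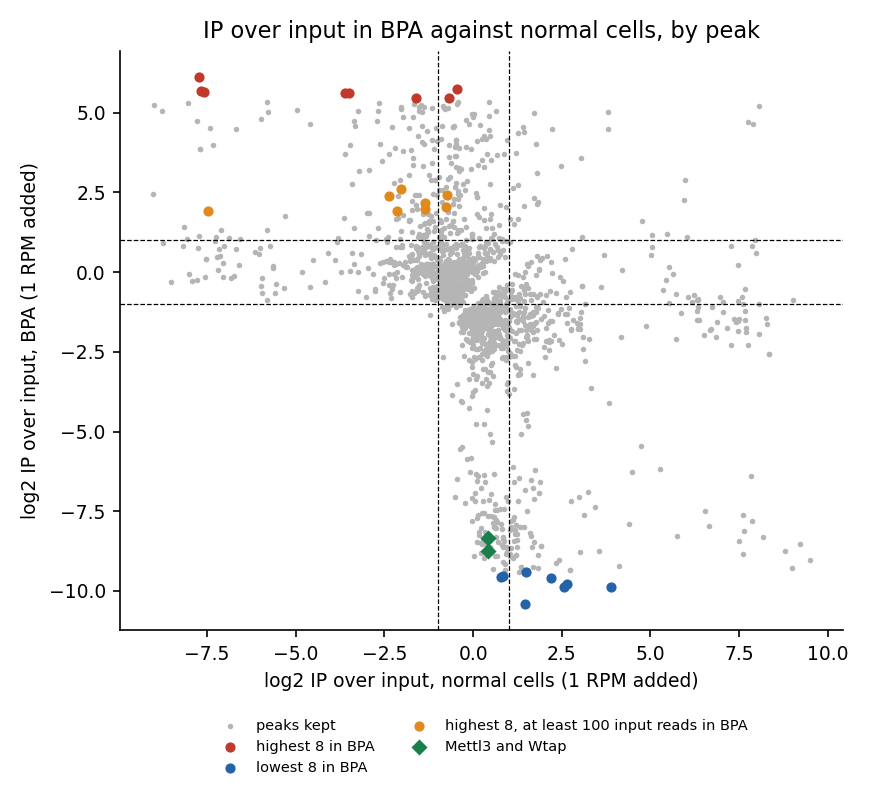
log2 IP over input in BPA-exposed cells against normal cells for the 1673 kept peaks, with the highest and lowest peaks of BPA-exposed cells coloured and Mettl3 and Wtap as green diamonds; dashed lines mark -1 and 1. Few peaks lie in the upper right (31) or lower left (1) corner, as the table holds only peaks called different between the conditions.

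Low IP reads beside ample input were also present in normal cells, in a similar number of peaks but at a lower share. Of 2982 peaks with more than 10 input reads in normal cells, 180 (6.04%) had 10 or fewer IP reads, against 173 of 1673 (10.3%) in BPA-exposed cells. The shares differ mainly in their base, since far more peaks passed the minimum in normal cells. A limit in reads is also a different RPM in each column: 1 IP read was worth 0.256 RPM in BPA-exposed and 0.185 RPM in normal cells. In normal cells the 173 low peaks of BPA-exposed cells had a median of 345.1 RPM in the IP and 177.9 RPM in the input, and all 173 had more than 10 IP reads. The difference in share between conditions was not tested, since each rests on 1 pooled value and on a table selected for differences.

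Input at the peaks and gene counts were loosely related. Across 1205 genes with both values, which are not independent replicates, the Spearman correlation of summed input RPM with gene counts scaled to library size was 0.321 for BPA replicate 1 and 0.285 for replicate 2. For summed IP RPM it was 0.210 and 0.218, and between the count libraries 0.747. Of the 158 peaks under -5 with a row in the count table, 122 had at least 100 reads for the gene in both BPA libraries. Of the 127 peaks at 3 or more with such a row, 79 did.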

How the data were processed

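Per the labels' protocols, mRNA was fragmented and a portion enriched for m6A with an antibody, the rest being input. DESeq2 1.38.3, featureCounts 2.0.1, HISAT2 2.2.1 and fastp 0.20.1 are named, without roles, in the submitters' processing notes. No source used here gives the peak caller. The authors deposited peak RPM pooled within a group. Within 0.1 read, 100% of the values of each column equalled a whole number of reads, which gave back the reads. For the normal input a separate check of the file did not accept this recovery, so its reads serve only for minimums of input reads in normal cells and its values are given as RPM. The authors also deposited a log2 fold change, p-value and false discovery rate (q-value) per peak, with no stated test. Counts per gene were deposited by the authors as whole reads, with totals of 8813870 and 6305121 in BPA replicates 1 and 2. The other 2 count columns, whose name matches no label, were not used.

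Peaks with more than 10 BPA input reads were kept and 1 RPM was added before log2. Intervals are exact 95% conditional binomial intervals of the ratio, without pseudocount (scipy 1.17.1, numpy 2.4.6), and cover counting error only, since reads are not independent molecules. Calculations were tested on simulated data. No count test was run on the recovered reads, as each group is 1 pooled value. Starts were shifted to 1-based. The notes name a human build, GRCh38, and a mouse build, GRCm39. The latter was taken, since 11.2% of 3172 peaks lay inside their gene's span in the GRCm38 table. No GRCm39 sequence or annotation was used, so exons, UTRs and motifs of peaks are not analysed here. Of peak entries, 99.2% matched a symbol. In the kept set 22 peaks were assigned to several genes and entered no list. Named peaks were the 8 highest and 8 lowest ratios, the same with at least 100 input reads, Map1lc3b, Mettl3, Mettl14, Wtap, Fto, Alkbh5 and Sqstm1, and up to 4 list members with most input reads. List members beyond these, Cald1 and Itgb1 were chosen after their values were seen. Members and the 29 lists were chosen with earlier results of these data known. The labels do not say whether replicates are different cultures.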

Additional observations from a re-analysis of the deposited data

Results flagged for a closer look

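Opposite ratios in the conditions were found at 239 kept peaks, with a log2 IP over input of -1 or less in BPA-exposed cells and 1 or more in normal cells, and at 139 peaks with the reverse. The difference was not tested here, since each value is pooled, and the authors selected the table for it. The peaks were also kept by BPA input alone.

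Outside the kept peaks, 357 had 0 input reads in BPA-exposed cells, which for 1 peak allows up to 3 reads, and 278 of these held at least 100 IP reads. Of all 1658 peaks left out for low input, 1447 held at least 100 IP reads, with a median of 653.5 reads (167.2 RPM).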

How the results depend on the processing

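For counts and medians over all peaks the minimum of input reads mattered. Without it 1759 peaks had 1 or more, the median of all peaks was 1.75, the median of BPA minus normal was 2.44 in place of -0.34, and 1915 peaks had a BPA value at least 1 above normal. With at least 100 input reads these became 62, -0.92, -1.36 and 262. With at least 100 in both conditions the median difference was -1.11 and 255 peaks lay at least 1 above. Leaving out peaks with 10 or fewer IP reads, chosen after seeing the data, gave a median of -0.42 for all peaks and -0.0227 for the difference. Requiring the interval to lie past the threshold left 256 and 622 peaks. Summed over its peaks Srp54b turned to -0.49. Without a minimum the transcription factor, immediate early and growth response list moved from 1.03 above all genes to -0.16. The long noncoding RNA list went from 1.60 to -1.28 with BPA replicate 2 counts as denominator. The cause was not tested. Of the comparisons of named peaks with an alternative, 194 stayed within the counting interval, 15 moved beyond it (10 with a pseudocount of 5 RPM and 5 with 1 value per gene) and 1 reversed. Alternatives that only select peaks, by reads, shared values or pseudogenes, cannot change the value of a peak. Nor can 1 value per gene where a gene has a single kept peak. Much of the 194 was thus fixed in advance and is no measure of robustness. For lists 162 stayed within the interval of the median, 21 moved (8 with each RNA-seq denominator and 5 with no minimum) and 2 reversed. In lists of 5 to 8 genes that interval runs from the lowest to the highest member, so the 162 is no measure of robustness either. The m6A list, at -2.97 and with the RNA-seq denominators at -7.34 and -1.28, counts as within it. A reversal was counted only where the main value was at least 1 in size, so smaller values could change sign without it. The splicing list, which went from 0.71 to -1.06, counts as moved, and the proteasome list, from 0.16 to -0.52 with no minimum, as within the interval. With a pseudocount of 5 RPM the Dek, Mettl3 and Wtap peaks had -8.35, -6.28 and -6.71, so the size of values at 0 or 1 IP read depends on it. No paired analysis was possible because IP and input are pooled over replicates in the peak table. Leaving out single libraries was not run for the same reason.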
